A study of Mus musculus with 8 samples.

Results

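The genes described here are 40 that build the lysosome of mouse macrophages: peptidases, glycosidases and lipid hydrolases with their cofactors, membrane proteins, the regulator Tfeb, and the subunits of the proton pump. They were chosen by gene symbol, and every probe carrying 1 of these symbols was read on all 8 Illumina beadchip arrays. Of the 40, 38 had at least 1 named probe and 37 had a probe that passed the filter on dim values (100 or more on 4 or more arrays), and these 37 are the measured members. Over the whole array 7982 named genes passed. Libraries labelled Vav1 knockout (vav1-/-, KO 1 to 4) were compared with libraries labelled wild type (WT 1 to 4), both on the C57BL/6 strain. Both are bone marrow macrophages of male and female mice aged 7 to 12 weeks. Vav1 encodes a signalling protein of blood cells, and vav1-/- stands for loss of both copies, with no promoter or Cre named in the labels. The labels name no treatment, growth factor or time in culture for either genotype.

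The lysosome is the acidic compartment in which macrophages break down what they engulf. The V-ATPase pumps protons into it, with a membrane-bound V0 part that forms the proton path and a V1 part that splits ATP. Soluble hydrolases work at the resulting low pH, and heavily glycosylated membrane proteins line the organelle. The transcription factor TFEB binds a palindromic element around the E-box core CACGTG in the promoters of many lysosomal genes.

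That element is shown for the members that carry it in their promoter window, because it is already known from many lysosomal promoters. A higher share among the members is therefore not independent support for it. RefSeq windows from 250 bases before to 50 after a gene's start (build GRCm38.p6) were held for 34 of the members, in 41 windows. The core CACGTG, which reads the same on both strands, was found in 12 of the 41 windows (29.3%), against 7.15% of all 32851 windows. The longer TCACGTGA, which contains the core and is also palindromic, was found in 7 windows (17.1%), against 0.974% of all windows. With a further G before and C after, it was found in 0 of the 41 windows and in 0.326% of all. The windows with TCACGTGA belong to Atp6v0d1, Atp6v0e, Atp6v1a, Ctsa, Ctsd, Gla and Mcoln1. Each stretch below is 30 bases from the gene's own strand, 5′ to 3′, with the motif in capitals.
Atp6v0d1 (chr8:105566050-105566079, - strand): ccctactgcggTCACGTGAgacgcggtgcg
Atp6v0e (chr17:26676387-26676416, + strand): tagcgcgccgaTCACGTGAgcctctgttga
Atp6v1a (chr16:44139373-44139402, - strand): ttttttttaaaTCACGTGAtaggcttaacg
Ctsa, 9 bases before the start (chr2:164833749-164833778, + strand): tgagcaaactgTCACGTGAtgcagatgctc
Ctsa, 8 bases after the start (chr2:164833766-164833795, + strand): gatgcagatgcTCACGTGAccagagctaca
Ctsd (chr7:142387908-142387937, - strand): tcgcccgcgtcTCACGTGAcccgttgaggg
Gla, 224 bases before the start (chrX:134601215-134601244, - strand): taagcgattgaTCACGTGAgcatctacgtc
Gla, 191 bases before the start (chrX:134601182-134601211, - strand): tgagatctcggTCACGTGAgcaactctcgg
Mcoln1 (chr8:3500462-3500491, + strand): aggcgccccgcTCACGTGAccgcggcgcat
The centres of these sites lay between 224 bases before and 8 bases after the start. A match describes the letters only. Tfeb itself had 2 probes, and neither passed the filter: they read between 76.1 and 105 over the 8 libraries, where the median probe of every array read 86.2.

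The targeted gene and WT 4 bear on every value. The single Vav1 probe read 1805, 1699, 308 and 288 in KO 1 to 4, against 1825, 1642, 267 and 384 in WT 1 to 4, so the targeted gene goes against the labels of KO 1, KO 2, WT 3 and WT 4. Directions are therefore those of the libraries labelled KO relative to the libraries labelled WT, and no library was moved. WT 4 stood apart: its correlation with the others over the kept probes was 0.839 to 0.901, against 0.971 to 0.996 among the other 7. Group medians and the larger fold changes are therefore given with and without WT 4. All 7 of 7 listed macrophage markers with a probe passed the filter, with a summed intensity of 26230 to 31747 in the libraries labelled KO and 24511 to 34812 in those labelled WT. The sum was highest in WT 4, where Lyz2 (19319) and Adgre1 (11859), which carry most of it, were high. In the same library 2 of the 7 markers lay over 2-fold below the median of the other 7, Csf1r at 0.473 and Cd14 at 0.306 of it. Listed stromal markers passed in 0 of 6 and lymphocyte markers in 0 of 4. Stromal sums were 476 to 497 in the libraries labelled KO and 498 to 548 in those labelled WT. Lymphocyte sums were 322 to 329 in the libraries labelled KO and 331 to 355 in those labelled WT. The labels did not overlap in either, but these are sums of dim probes that all failed the filter. Neutrophil markers passed in 2 of 7, with sums of 703 to 761 in the libraries labelled KO and 685 to 798 in those labelled WT. Osteoclast markers, some of them lysosomal, passed in 3 of 6, with sums of 981 to 1331 in the libraries labelled KO and 1060 to 1221 in those labelled WT. Dendritic cell markers passed in 1 of 6, with sums of 582 to 613 in the libraries labelled KO and 596 to 651 in those labelled WT, and mast cell markers in 2 of 6, with sums of 534 to 737 in the libraries labelled KO and 534 to 760 in those labelled WT. Every sum above runs over all listed markers with a probe, including those that failed the filter. Much of the neutrophil, dendritic and mast cell sums therefore comes from dim probes. These sums cannot be read as expression of the markers that passed. The part of these cell types in the results was not tested. In RNA from a whole culture, fewer cells of a type and less RNA per cell cannot be told apart.

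Between the labelled genotypes no lysosomal gene passed the test. In limma's moderated test across all 13479 kept probes, 0 of 37 members had an adjusted p under 0.05, where 0% of all 7982 genes did. At an unadjusted p under 0.05 there were 0 members, against 0.338% of all genes and 0.326% of all probes. Adjusted p-values of the members ran from 0.795 to 0.97. The libraries of the 2 labels overlapped for each of the 37 members. Over all genes the libraries labelled KO lay wholly above in 0.526% and wholly below in 0.601%. The log2 fold change, KO over WT, was above 0 in 22 of 37 members (59.5%), against 43.4% of all genes. The median was 0.041 for the members and -0.038 over all genes. Leaving out KO 4 brought the members' median to -0.0050. Without WT 4 the fold change was above 0 in 23 members (62.2%), against 46.2% of all genes, with medians of 0.038 and -0.0087. The median standard error of a member was 0.21 with a 95% interval that extended by 0.48 each way at the median. Without WT 4 the median standard error was 0.13, and 0 members passed, nor did any have an unadjusted p under 0.05, as 0.363% of all genes did. The labels do not say whether each array stands for its own mouse. The p-values thus rest on the differences between arrays of 1 label, part of which may be technical.

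**Figure D1:**
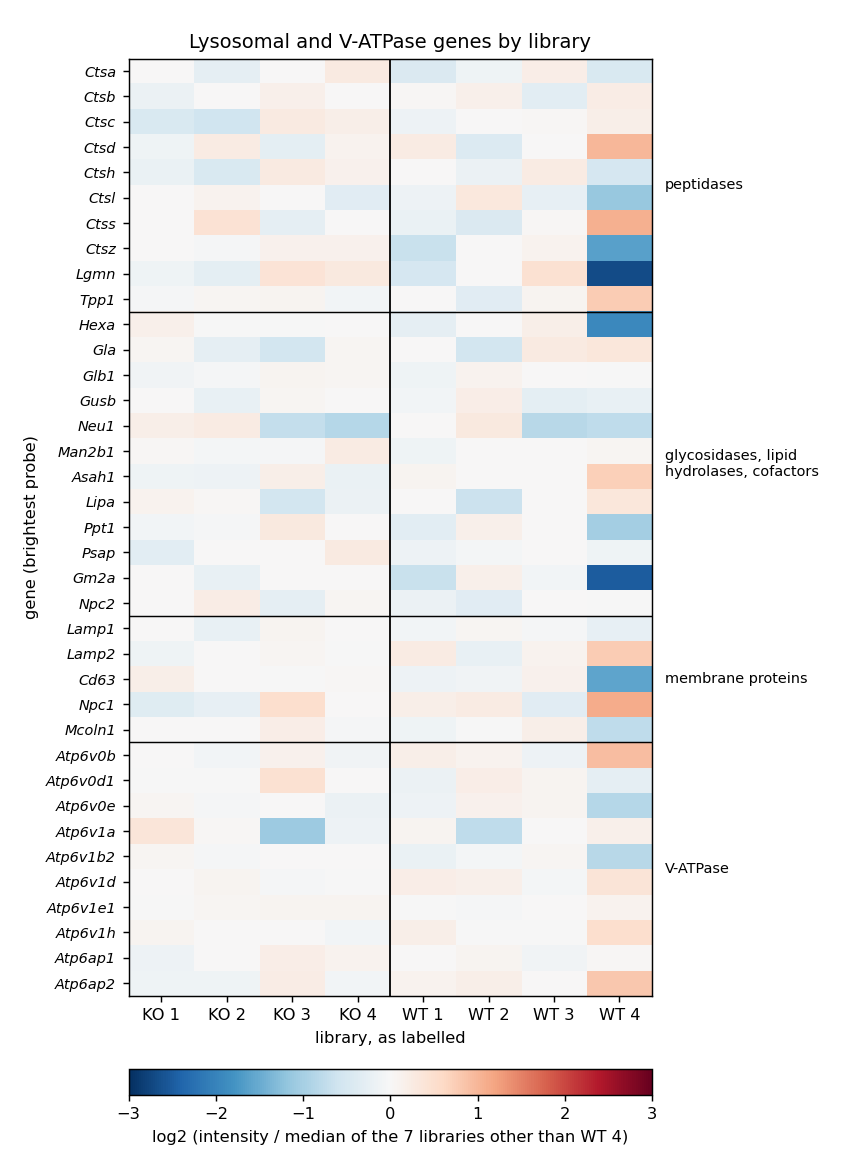
Intensity of the brightest probe of 37 lysosomal and V-ATPase genes (rows) in each library (columns), as log2 of the ratio to the median of the 7 libraries other than WT 4; red is higher, blue is lower. Most strong colours lie in the WT 4 column, in both directions, with Lgmn and Gm2a darkest. Atp6v1a is also strongly blue in KO 3, and Neu1 is pale or red in the libraries numbered 1 and 2 and blue in those numbered 3 and 4.

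No cathepsin or other lysosomal peptidase passed the test. Of 10 measured, 5 were above WT and 5 below WT in the libraries labelled KO, with a median log2 fold change of 0.0053, and 0.068 without WT 4. The probe of Ctsb, a cysteine cathepsin that acts as an endo- and exopeptidase, read 17922, 20164, 22502 and 20164 in KO 1 to 4, against 20700, 22502, 16173 and 23681 in WT 1 to 4. WT 3 was lowest and WT 4 highest, so the labels overlapped, and the log2 fold change was -0.030 ± 0.15 (SE). Ctss, the cathepsin that trims the invariant chain of MHC class II, read 3698, 4959, 3067 and 3698 in KO 1 to 4, against 3203, 2754, 3789 and 7761 in WT 1 to 4. KO 2 and above all WT 4 were high. Its log2 fold change was -0.080 ± 0.31 (SE), and 0.24 ± 0.17 without WT 4, with the sign turned.

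Other peptidases were low in WT 4 rather than high. Lgmn encodes legumain, which cuts after asparagine and matures several cathepsins. It read 7035, 6277, 10240 and 9353 in KO 1 to 4, against 5412, 7662, 10504 and 1190 in WT 1 to 4, so that WT 4 lay far below every other library. The log2 fold change of Lgmn was 0.76 ± 0.59 (SE; adjusted p = 0.795 in limma), and 0.090 ± 0.24 without WT 4. Ctsz, cathepsin Z, a carboxypeptidase, read 4002, 3915, 4363 and 4347 in KO 1 to 4, against 2516, 4002, 4308 and 1292 in WT 1 to 4. Here WT 1 was also low. The second Ctsz probe likewise had WT 4 and WT 1 lowest, with 3543, 3757, 3497 and 3639 in KO 1 to 4, against 2483, 3245, 3797 and 1066 in WT 1 to 4. Ctsz had the smallest unadjusted p of the members, 0.11, with a log2 fold change of 0.61 ± 0.34 (SE; adjusted p = 0.795 in limma), and 0.24 ± 0.17 without WT 4. Ctsl, cathepsin L, an endopeptidase, had a dim probe that read 204, 216, 202 and 160 in KO 1 to 4, against 182, 252, 169 and 91.0 in WT 1 to 4, again lowest in WT 4. Its fold change was 0.31 ± 0.32 on the log2 scale, and -0.030 ± 0.17 without WT 4.

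The remaining 5 peptidases had log2 fold changes of -0.23 to 0.21, and -0.12 to 0.13 without WT 4. Ctsa, a carboxypeptidase that also protects neuraminidase and beta-galactosidase, averaged 1587 ± 235 in the libraries labelled KO and 1388 ± 305 in those labelled WT (SD, n = 4 each). Ctsc, which activates serine proteases, averaged 1432 ± 425 in the libraries labelled KO and 1567 ± 144 in those labelled WT (SD, n = 4 each). Values of Ctsc in KO 1 and KO 2 (1122 and 1014) lay below those in KO 3 and KO 4 (1856 and 1736), a wider spread than between the labels. Ctsd, the main aspartic protease of the lysosome, averaged 433 ± 71.4 in the libraries labelled KO and 533 ± 233 in those labelled WT (SD, n = 4 each), and WT 4 alone read 862. Ctsh, an aminopeptidase, averaged 2285 ± 502 in the libraries labelled KO and 2220 ± 480 in those labelled WT (SD, n = 4 each), and its 2 probes had opposite signs. Tpp1, which removes tripeptides, averaged 1312 ± 68.0 in the libraries labelled KO and 1487 ± 517 in those labelled WT (SD, n = 4 each).

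Glycosidases, lipid hydrolases and their cofactors had 9 higher and 3 lower values of 12, with 0 past the test. Their median log2 fold change was 0.061, and 0.059 without WT 4. Psap encodes prosaposin, the precursor of the saposins that present sphingolipids to their hydrolases. Its brightest probe read 17405, 21720, 22059 and 26278 in KO 1 to 4, against 19478, 20700, 22059 and 19848 in WT 1 to 4. The KO 4 value equals the highest intensity, which all arrays share after normalization, and the labels overlapped. Lipa, the acid lipase that frees cholesterol from lipoprotein esters, read 15786, 15157, 10065 and 13073 in KO 1 to 4, against 14722, 9481, 14847 and 18736 in WT 1 to 4. KO 3 and WT 2 were lowest, 1 library of each label, and its second probe had the same 2 libraries lowest. The log2 fold change of Lipa was -0.076 ± 0.23 (SE), and 0.063 ± 0.20 without WT 4. Man2b1, lysosomal alpha-mannosidase, read 8734, 8087, 8317 and 10139 in KO 1 to 4, against 7789, 8484, 8570 and 8822 in WT 1 to 4, with a narrow spread under both labels.

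The cofactor and the enzyme of ganglioside breakdown both read low in WT 4, each on a single probe. Gm2a encodes the GM2 activator, which hands the ganglioside to hexosaminidase A, and read 3328, 2855, 3375 and 3382 in KO 1 to 4, against 2079, 3674, 3153 and 592 in WT 1 to 4. Hexa, the alpha chain of that hexosaminidase, read 4740, 4197, 4205 and 4239 in KO 1 to 4, against 3534, 4281, 4818 and 1104 in WT 1 to 4. In both, WT 4 lay below every other library, at 0.178 and 0.261 of the median of the other 7. Among all kept probes with a median of at least 500 in the other 7, 19.3% were over 2-fold lower in WT 4. Neither gene has a second probe to compare, and probes of the same gene often disagreed in WT 4 (below). The log2 fold changes were 0.74 ± 0.50 for Gm2a and 0.54 ± 0.41 for Hexa (SE; adjusted p = 0.795 each in limma). Without WT 4 they were 0.16 ± 0.18 and 0.055 ± 0.12. Ppt1, which removes palmitate from proteins, read 244, 250, 318 and 257 in KO 1 to 4, against 208, 287, 260 and 127 in WT 1 to 4, with WT 4 lowest again. The log2 fold change of Ppt1 was 0.38 ± 0.27 (SE), and 0.10 ± 0.15 without WT 4. Asah1, acid ceramidase, went the other way on its brightest probe and read 6156, 6088, 7639 and 5921 in KO 1 to 4, against 7143, 6777, 6777 and 11202 in WT 1 to 4. Its log2 fold change was -0.28 ± 0.19 (SE), and -0.10 ± 0.11 without WT 4.

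For Glb1, Gusb, Gla and Npc2 the differences between the labels were within the spread of the libraries on the brightest probe. Glb1, lysosomal beta-galactosidase, averaged 2194 ± 135 in the libraries labelled KO and 2173 ± 144 in those labelled WT (SD, n = 4 each). Gusb, beta-glucuronidase, averaged 7111 ± 586 in the libraries labelled KO and 6873 ± 1087 in those labelled WT (SD, n = 4 each). Gla, alpha-galactosidase A, averaged 190 ± 38.2 in the libraries labelled KO and 219 ± 55.6 in those labelled WT (SD, n = 4 each). Npc2, the soluble carrier that passes cholesterol to NPC1, averaged 5698 ± 789 in the libraries labelled KO and 5164 ± 554 in those labelled WT (SD, n = 4 each). The 95% intervals of these 4 log2 fold changes were -0.24 to 0.27 for Glb1, -0.26 to 0.38 for Gusb, -0.78 to 0.36 for Gla and -0.19 to 0.46 for Npc2. The fold changes themselves were -0.21 to 0.14, and -0.093 to 0.18 without WT 4. The other kept Gusb probes gave -0.042, 0.73 and 1.22, and -0.19, 0.083 and 0.21 without WT 4.

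Neu1 divided the libraries by number and not by label. It encodes the lysosomal sialidase, which removes terminal sialic acids, and its single probe read 1551, 1644, 845 and 759 in KO 1 to 4, against 1382, 1698, 781 and 817 in WT 1 to 4. The libraries numbered 1 and 2 of both labels lay between 1382 and 1698, and those numbered 3 and 4 between 759 and 845, with a gap of 1.64-fold. These are the same libraries that Vav1 sets apart. Neu1 was the only 1 of 37 members with a gap of over 1.5-fold between these numbers, which was seen in 0.664% of all genes. Without regard to the size of a gap, the libraries numbered 1 and 2 lay wholly above the others in 1 member, Neu1 (2.7%, against 4.13% of all genes), and wholly below in 1, Ctsc (2.7%, against 3.7%). The numbers were chosen for this after the Vav1 values were known, and no test was made. Between the labels Neu1 had a log2 fold change of 0.032 ± 0.35 (SE), 0.061 within the numbers 1 and 2 and 0.0034 within 3 and 4. In the RefSeq order of assembly GRCm38.p6, Neu1 lies on chromosome 17 between Slc44a4 and Hspa1b. The MHC class II gene H2-Aa is 31 protein-coding genes away, and Vav1, on the same chromosome, 366.

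**Figure D2:**
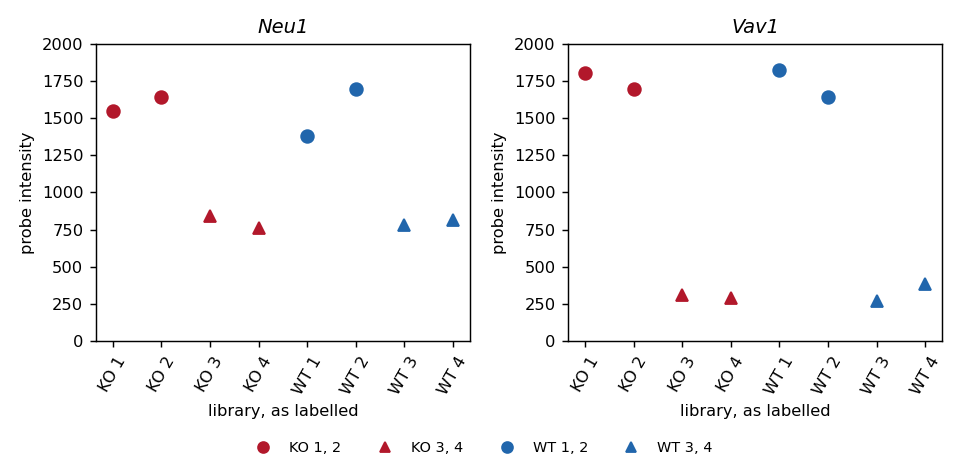
Probe intensity (linear axis from 0) of Neu1 and of Vav1 in each library as labelled, red for KO and blue for WT, with circles for the libraries numbered 1 and 2 and triangles for those numbered 3 and 4. In both genes the circles lie above the triangles under both labels.

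No membrane protein of the lysosome passed the test, with 3 higher and 2 lower values of 5 and a median log2 fold change of 0.039. Without WT 4 the median was -0.021. Lamp1, a main glycoprotein of the lysosomal membrane, read 10504, 8852, 10994 and 10380 in KO 1 to 4, against 9871, 10845, 10191 and 8734 in WT 1 to 4, with the labels interleaved. Lamp2, its relative that also serves chaperone-mediated autophagy, read 5767, 6303, 6560 and 6238 in KO 1 to 4, against 7502, 5404, 6760 and 10740 in WT 1 to 4 on its brightest probe. WT 4 was highest, and the log2 fold change of Lamp2 was -0.25 ± 0.20 (SE), and -0.065 ± 0.12 without WT 4. The tetraspanin gene Cd63 read 7597, 6694, 6654 and 6859 in KO 1 to 4, against 6057, 6252, 7319 and 2218 in WT 1 to 4, with WT 4 at less than any other library. Its log2 fold change was 0.48 ± 0.34 (SE; adjusted p = 0.795 in limma), and 0.091 ± 0.11 without WT 4. Npc1, which exports cholesterol from the lysosome, read 2231, 2388, 4025 and 2848 in KO 1 to 4, against 3221, 3365, 2239 and 6156 in WT 1 to 4. WT 4 was again highest and KO 3 second, and the log2 fold change was -0.32 ± 0.31 (SE), and -0.051 ± 0.22 without WT 4. Mcoln1, a calcium channel of the lysosomal membrane, had a dim probe that averaged 264 ± 18.9 in the libraries labelled KO and 233 ± 59.0 in those labelled WT (SD, n = 4 each).

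No V-ATPase gene passed the test either. No probe carried the names Atp6v0c and Atp6v1f. Of the 10 measured subunits and accessory proteins, 5 were higher and 5 lower, with a median log2 fold change of -0.020, and -0.019 without WT 4. Among the 7 libraries other than WT 4, the highest value of a V-ATPase gene was at the median 1.24 times the lowest. This ratio was 1.25 for the membrane proteins, 1.49 for the glycosidases and lipid hydrolases, 1.63 for the peptidases and 1.3 over all genes.

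In the V1 part, Atp6v1e1, a stalk subunit, read 7761, 8138, 8230 and 8288 in KO 1 to 4, against 7708, 7597, 7789 and 8379 in WT 1 to 4, the narrowest range of any member among the 7 libraries. Atp6v1b2, the B subunit of the catalytic ring, read 9871, 9307, 9596 and 9545 in KO 1 to 4, against 8379, 9213, 9932 and 5348 in WT 1 to 4. Only WT 4 stood off, on the low side, and the log2 fold change was 0.26 ± 0.19 (SE), and 0.066 ± 0.10 without WT 4. Atp6v1a, the A subunit that splits ATP, was the exception among the pump genes and read 5477, 4363, 1999 and 3809 in KO 1 to 4, against 4510, 2506, 4249 and 4740 in WT 1 to 4. KO 3 and WT 2 were low, and the highest of the 7 libraries was 2.74 times the lowest, the widest range of any member. Atp6v1d, of the central shaft, averaged 2023 ± 81.6 in the libraries labelled KO and 2276 ± 296 in those labelled WT (SD, n = 4 each), and Atp6v1h, a regulatory subunit, averaged 3408 ± 144 in the libraries labelled KO and 3847 ± 655 in those labelled WT (SD, n = 4 each).

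In the V0 part, Atp6v0b, a proteolipid subunit, read 2741, 2591, 3010 and 2554 in KO 1 to 4, against 3100, 2939, 2478 and 5166 in WT 1 to 4, with WT 4 highest. Its log2 fold change was -0.28 ± 0.22 (SE), and -0.057 ± 0.11 without WT 4. Atp6v0d1, which couples V0 to the shaft, averaged 3273 ± 565 in the libraries labelled KO and 2954 ± 437 in those labelled WT (SD, n = 4 each), and Atp6v0e averaged 5000 ± 354 in the libraries labelled KO and 4599 ± 1260 in those labelled WT (SD, n = 4 each). Of the accessory proteins, Atp6ap1, needed for assembly, averaged 6918 ± 712 in the libraries labelled KO and 6700 ± 370 in those labelled WT (SD, n = 4 each). Atp6ap2, also known as the prorenin receptor, read 6859, 6859, 8765 and 7072 in KO 1 to 4, against 8025, 8427, 7481 and 13136 in WT 1 to 4 on its brightest probe. WT 4 was far above the rest. Atp6ap2 had the smallest unadjusted p among the lower values, 0.15, with a log2 fold change of -0.30 ± 0.19 (SE; adjusted p = 0.795 in limma), and -0.12 ± 0.12 without WT 4. Its other 3 probes gave the opposite sign, with 1.03, 1.28 and 1.05.

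**Figure D3:**
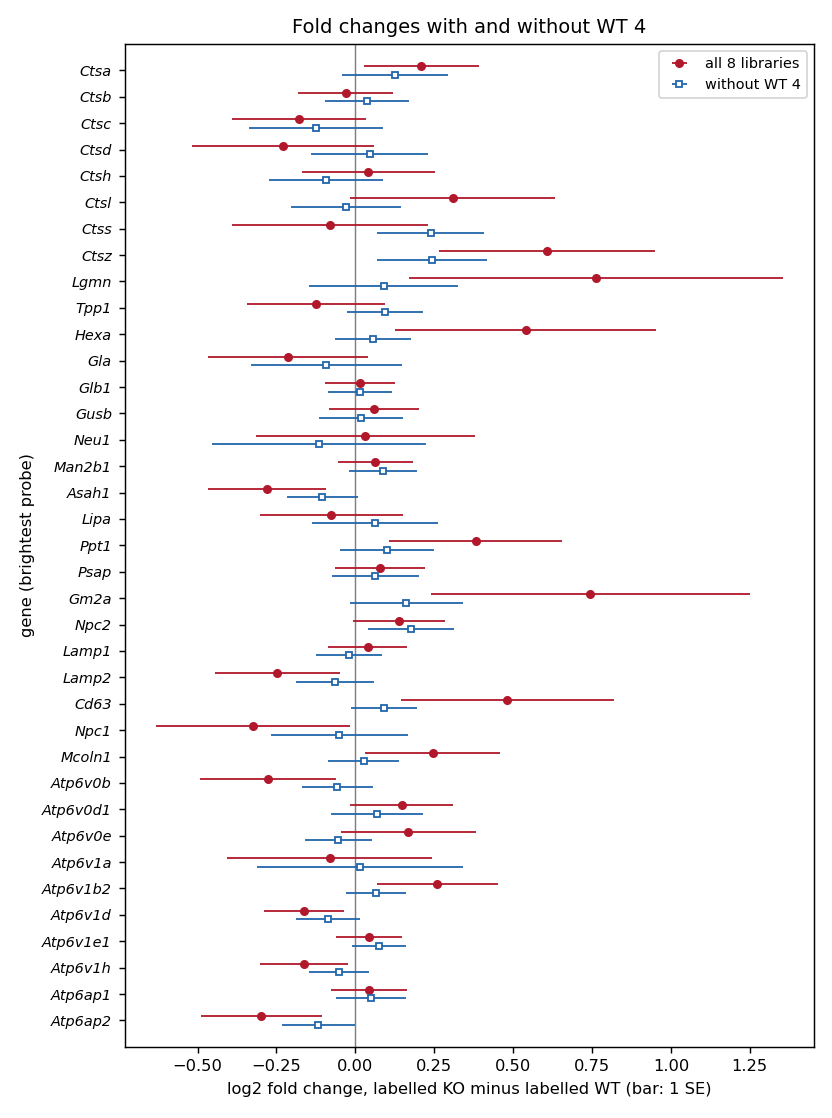
Log2 fold change of each of 37 members, libraries labelled KO over those labelled WT, from the brightest probe; filled circles use all 8 libraries, open squares leave out WT 4, and bars are 1 SE. The values of Lgmn, Gm2a, Ctsz and Hexa lie above 0.5 with all libraries, and on the brightest probe 0 members lie beyond 0.5 on either side without WT 4.

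The fold changes of lysosomal genes turned on WT 4. With all libraries, 4 members (Lgmn, Gm2a, Ctsz and Hexa) had a log2 fold change beyond 0.5 on either side, and without WT 4 there were 0. These counts use the brightest probe. With the mean over probes there were 6, with Atp6v0d1 at 0.79 (brightest probe 0.15) and Atp6ap2 at 0.77 (brightest probe -0.30) in addition, and Gusb was at 0.49 (brightest probe 0.058). Leaving out WT 4 turned the sign of 11 members. WT 4 held the lowest of the 8 values in 14 members and the highest in 14. The shares of all genes with such fold changes, turned signs or extreme values were not counted. The counts are thus not shown to be particular to the members. WT 4 lay over 2-fold below the median of the other 7 in 7 members (Ctsl, Ctsz, Lgmn, Hexa, Ppt1, Gm2a and Cd63), against 9.05% of all genes. In 2 members (Ctss and Npc1) it lay over 2-fold above, against 4.7% of all genes. These are values of 1 library and carry no test.

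Probes of the same lysosomal gene disagreed in WT 4. Of the 65 member probes that passed the filter, 20 lay over 2-fold below the median of the other 7 libraries and 5 over 2-fold above. Among all kept probes these shares were 11% and 4.12%. Members are bright, and a dim probe cannot fall far, so the count was repeated over probes with a median of at least 500 in the other 7. It then stood at 17 of 54 member probes (31.5%) below and 4 above, where all such probes gave 19.3% below and 3.64% above. Several of the 17 belong to the same gene, as in Atp6v0d1 and Atp6ap2, so they are not independent and do not count genes.

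For Atp6ap2, 3 probes read 79.3, 78.6 and 87.7 in WT 4, near the median probe of the array. In the other 7 libraries the same probes read 396 to 822, 397 to 1024 and 754 to 1306. The brightest probe of the gene was at its highest in that library, so that 1 gene read lower on 3 probes and higher on another. The probes of Gusb also split, but no kept Gusb probe lay above the median of the other 7 in WT 4. Of these probes, 2 read 85.7 and 101 in WT 4, against 708 to 1681 and 282 to 797 in the other 7. The brightest Gusb probe read 6268 in WT 4, against 5921 to 8379, and the remaining kept probe read 304, against 332 to 507. The ratio of WT 4 to the median of the others was thus 0.0729 on 1 Gusb probe and 0.861 on another.

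The split was also seen in Atp6v0d1, Cd63, Lamp2, Asah1 and Ctsa. In Atp6v0d1, 3 probes had ratios of 0.0767, 0.0872 and 0.139 and the fourth had 0.832. In Cd63 the ratios were 0.125, 0.331 and 1.71. In Lamp2, 1 of 5 kept probes had a ratio of 0.355 and the other 4 had 1.4 to 2.08. The low Lamp2 probe is annotated to the same transcript record as 2 of the high ones. In Asah1 the ratios were 0.291 and 1.65, and in Ctsa they ran from 0.144 to 0.734.

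Of the 14 members with at least 2 kept probes, 7 had WT 4 ratios that differed over 4-fold between probes, against 6.88% of all genes with at least 2. Of the 8 members with at least 3 kept probes 6 did, against 14.1%. In 4 of the 7, all kept probes carry 1 transcript record. In 4 of the 14, 1 probe was over 2-fold low and another not low at all (28.6%), against 10.5% of such genes. These shares over all genes were not matched for brightness, and dim probes cannot fall far. They therefore do not show that the split is particular to lysosomal genes. In each of the other 7 libraries, taken in the same way, 0 of the 14 members had probe ratios over 4-fold apart. The median fold between probes of a member was 4.03 in WT 4 and 1.14 to 1.34 in the other libraries. Where 2 probes of a gene disagree in this way, the gene's level in WT 4 is not known from the array. What sets the probes apart was not tested, since their positions in the transcripts were not used here. Psap, Man2b1, Lipa, Ctsc, Ctsh, Ctsz and Npc1 did not show such a split at that size, and 23 members rest on a single kept probe and could not be examined.

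**Figure D4:**
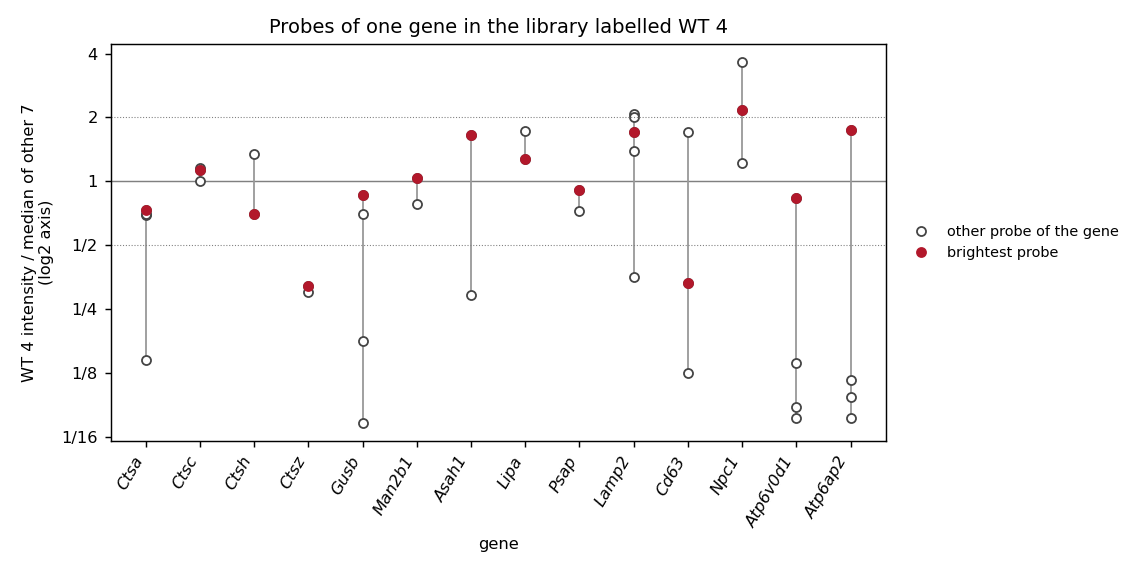
Intensity in WT 4 divided by the median of the other 7 libraries (log2 axis, no unit) for each kept probe of the 14 members with at least 2; filled points are the brightest probe of a gene, open points its other probes, and dotted lines mark 2-fold. In Atp6ap2, Atp6v0d1, Gusb, Cd63, Lamp2, Asah1 and Ctsa the probes are over 4-fold apart.

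Member probes that were low in WT 4 were mostly lowest of the rest in WT 1, a pattern noticed in the data. Of the 20 member probes over 2-fold below the other libraries in WT 4, WT 1 was the lowest of the other 7 in 18 (90.0%). Among all 1482 kept probes that low in WT 4 the share was 58.9%. Whatever their value in WT 4, WT 1 was lowest of the other 7 in 28 of all 65 member probes (43.1%), and among all kept probes the share was 19.4%. Several of these member probes belong to the same gene, as in Atp6ap2 and Atp6v0d1, and are not independent. The shares over all probes were not matched for brightness. The pattern is therefore not shown to be particular to lysosomal genes. The 3 low Atp6ap2 probes read 396, 397 and 754 in WT 1, below every library except WT 4. Without WT 4, their log2 fold changes were 0.21, 0.42 and 0.069, where the brightest probe gave -0.12.

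KO 3 and WT 2, a pair picked from the values, were lowest together in about the share of members seen over all genes. They held the 2 lowest of the 8 values in 6 of 37 members (16.2%), namely Ctsd, Ctss, Gla, Lipa, Npc2 and Atp6v1a, against 11% of all genes. For Lipa the other 6 libraries read 13073 to 18736, and for Atp6v1a 3809 to 5477.

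Of the lysosomal genes outside the 40, none passed the test either. Of 31 further hydrolases, 19 were measured, with 9 higher and 10 lower values and 0 past the test. Their median log2 fold change was -0.013, and 0.016 without WT 4. Dpp7, a dipeptidyl peptidase, read 4448, 3851, 4790 and 4626 in KO 1 to 4, against 3703, 5412, 4438 and 5090 in WT 1 to 4. Pla2g15, lysosomal phospholipase A2, read 3171, 3552, 5960 and 5282 in KO 1 to 4, against 3757, 4228, 4759 and 3960 in WT 1 to 4. The sulfatase gene Ids read 1228, 1254, 1201 and 1126 in KO 1 to 4, against 1402, 1276, 1089 and 2905 in WT 1 to 4, and WT 4 alone was high. Of 17 further membrane proteins 14 were measured, with 11 higher, 3 lower and 0 past the test. Their median was 0.025, and 0.028 without WT 4. Laptm5, a lysosomal protein of blood cells, read 23681, 18926, 18736 and 17645 in KO 1 to 4, against 18085, 18410, 19848 and 17278 in WT 1 to 4. Slc11a1, the metal transporter NRAMP1 of phagosomes, read 9213, 8765, 12215 and 12360 in KO 1 to 4, against 8427, 10139, 11505 and 11598 in WT 1 to 4, and the labels overlapped in both. Gpnmb, a glycoprotein of macrophage lysosomes, read 25341, 23269, 17645 and 25341 in KO 1 to 4, against 22502, 18926, 26278 and 21720 in WT 1 to 4, and here too the labels overlapped.

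Of 13 further V-ATPase genes 6 were measured, with 4 higher, 2 lower and 0 past the test. Their median was 0.25, and 0.042 without WT 4. The a subunits Atp6v0a1 and Tcirg1 differed in how WT 4 read. Atp6v0a1 read 6694, 5767, 7911 and 8004 in KO 1 to 4, against 5760, 7708, 7164 and 6706 in WT 1 to 4, with WT 4 amid the others. Tcirg1 read 4048, 3328, 3634 and 4228 in KO 1 to 4, against 2914, 3284, 4414 and 1398 in WT 1 to 4, and Atp6v1c1, a stalk subunit, read 2884, 2801, 2202 and 2192 in KO 1 to 4, against 2430, 2695, 2304 and 741 in WT 1 to 4. In both of these WT 4 was lowest. Atp6v0d2, the d subunit gene of osteoclasts, did not pass the filter, and read at most 90.7. Of 22 genes of sorting, inhibition and regulation 20 were measured, with 7 higher, 13 lower and 0 past the test, and a median of -0.086, and -0.017 without WT 4. M6pr, a mannose 6-phosphate receptor that carries hydrolases to the lysosome, read 6502, 6268, 4381 and 6502 in KO 1 to 4, against 6706, 4476, 6923 and 8931 in WT 1 to 4. Cstb, a cytosolic cathepsin inhibitor, read 18085, 16006, 19319 and 19478 in KO 1 to 4, against 17405, 18085, 21226 and 17180 in WT 1 to 4, and Cst3, a secreted one, read 8992, 8872, 8822 and 7035 in KO 1 to 4, against 8822, 10380, 8025 and 3882 in WT 1 to 4. Tfe3 and Mitf, relatives of Tfeb that bind the same element, passed the filter where Tfeb did not. Tfe3 averaged 329 ± 43.5 in the libraries labelled KO and 266 ± 87.2 in those labelled WT (SD, n = 4 each). Mitf averaged 179 ± 36.0 in the libraries labelled KO and 206 ± 90.8 in those labelled WT (SD, n = 4 each).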

How the data were processed

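The authors deposited probe intensity on a linear scale for 45281 probes and 8 arrays of biotin-labelled cRNA. All 8 columns share 1 distribution (lowest 68.1, median 86.2, highest 26278), so they had been normalized between arrays; the software and any background step behind this were not given in the sources used here. Precision is set by having 4 arrays per label. The 16 per-sample columns of another table carry names found in no label and were left out.

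The platform annotation named 34885 probes with 1 gene symbol, 18 with several and 10378 with none; symbols were looked up in RefSeq (GRCm38.p6), which changed 0 and left 78 unmatched. Background correction by normexp, with an offset of 50, and log2 transformation used limma 3.58.1 (R 4.3.3). The offset shrinks the fold changes of dim probes. Kept were 13479 probes with at least 100 on at least 4 arrays. The brightest probe stood for a gene. lmFit and eBayes were fitted to all kept probes with Benjamini-Hochberg adjustment and a threshold of 0.05. Intensities of different probes were not set against each other as transcript levels. The fit was tested on simulated data. No slide or scan batch is given.

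The members, gene lists and most settings were chosen with earlier results of these data known. All members are named. Values in every library are given for the 3 brightest of each role, the 3 smallest p in each direction and those over 2-fold off in WT 4, and for the 3 brightest of each further list. Neu1, Atp6v1a, Atp6v0d2, Tfe3, Mitf, Tfec and the split probes were added after their values were seen. Alternatives were another offset, uncorrected values, array weights, a stricter filter and none, a trended robust variance, the replicate number as a block, the mean over probes, each library left out and, added later, the numbers 1 and 2 against 3 and 4 as a term. Same-numbered libraries were checked for pairing by the correlation of their deviations from the group means. Motifs were searched in RefSeq promoter windows. Figures were drawn with matplotlib 3.10.9.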

Additional observations from a re-analysis of the deposited data

Results flagged for a closer look

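In 74 groups of 4 libraries (37 members under 2 labels), 8 held 1 library far from the others, where Dixon's test flags about 1 in 20 groups by chance. The groups share the same libraries and are not independent, and the share over all genes was not counted. No excess in the members can be read from this. KO 3 was high for Asah1 (7639 against 5921 to 6156 in the other 3 libraries labelled KO), Atp6v0d1 (4119 against 2961 to 3010), Atp6ap2 (8765 against 6859 to 7072) and Mcoln1 (292 against 251 to 256). KO 1 was high for Hexa (4740 against 4197 to 4239). KO 2 was low for Gm2a (2855 against 3328 to 3382). WT 4 was high for Asah1 (11202 against 6777 to 7143 in the other 3 libraries labelled WT) and for Atp6ap2 (13136 against 7481 to 8427). The low WT 4 values of Lgmn, Gm2a, Ctsz and Hexa did not reach the critical value.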

How the results depend on the processing

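Across 17 alternative settings 0 members passed the threshold, and 0 probes did in the 16 that give a count of probes, and the lowest adjusted p of a member was 0.505, in limma without WT 2. The median log2 fold change of the members was 0.041, and between 0.030 and 0.043 in the settings that kept all libraries; leaving out each library in turn gave -0.0050 to 0.068, the lowest without KO 4, where the sign turned. Of 629 member values, 590 kept their direction and 39 turned, in 18 members, none past the threshold before or after. No turn was seen with the other offset or without correction. The filters, the trend and robust variance model and the number terms cannot change a fold change in this balanced design. They bear on the p-values only, so their share of the 590 was fixed in advance. With array weights, the turned log2 fold changes were 0.023 (Ctsb), -0.15 (Ctsh), 0.20 (Ctss), 0.0011 (Tpp1), 0.036 (Lipa), -0.0011 (Lamp1), -0.010 (Atp6v0e) and 0.070 (Atp6v1a). With the mean over probes, they were -0.047 (Ctsh), 0.15 (Asah1) and 0.77 (Atp6ap2). Leaving out each library in turn gave ranges of -0.15 to 0.038 for Ctsb, -0.45 to 0.046 for Ctsd, -0.093 to 0.17 for Ctsh, -0.030 to 0.55 for Ctsl, -0.26 to 0.24 for Ctss, -0.28 to 0.093 for Tpp1, -0.027 to 0.053 for Glb1, -0.0092 to 0.16 for Gusb, -0.15 to 0.24 for Neu1, -0.0055 to 0.10 for Man2b1, -0.26 to 0.063 for Lipa, -0.016 to 0.18 for Psap, -0.021 to 0.10 for Lamp1, -0.053 to 0.28 for Atp6v0e, -0.29 to 0.21 for Atp6v1a and -0.012 to 0.10 for Atp6ap1. Of these, 11 turned when WT 4 was left out. The cause was not tested. With the replicate number as a block 0 members passed the threshold. Each number holds a library of each label, so this block could not move the median from 0.041. Same-numbered libraries correlated at 0.46, -0.17, 0.14 and 0.13 in their deviations from the group means, so the numbers were not taken to pair the libraries. Signal over background could not be measured, and Tfeb could not be tested at this intensity.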
